A study of Mus musculus with 2 samples.

Results

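The 84 cytosolic ribosomal protein genes here are the features named Rpl or Rps with a number, plus Rplp0, Rplp1, Rplp2 and Rpsa. After the number only a single letter (a, x, y or l) and a further number could follow. Names alone set membership, out of 27998 features, but this rule was chosen with earlier results of these data known. In this set 43 genes encode proteins of the large subunit and 31 of the small subunit. A further 3 encode the stalk proteins (Rplp0, Rplp1 and Rplp2). The remaining 7 are divergent paralogs or a pseudogene (Rpl3l, Rpl6l, Rpl7l1, Rpl10l, Rpl22l1, Rpl39l and Rps27l), of which Rpl6l is a processed pseudogene in the GENCODE annotation and all other members are protein-coding. RNA was measured in single cells from the lungs of male mice. The cells had been sorted for EpCAM and against Sca-1, CD24, CD45, CD34 and CD31. One library is labelled WT and 1 is labelled IP-/- (IPKO), meaning without the prostaglandin I2 receptor, whose gene is Ptgir. No treatment, age or number of mice is given in the labels, so each library may hold cells of 1 mouse or of several. The submitters' title connects this receptor with regeneration of the alveoli and with JUN and p53.

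Ribosomal proteins assemble with ribosomal RNA into the small subunit, which reads the mRNA, and the large subunit, which joins the amino acids. Their mRNAs are among the most abundant of any cell and mostly start with a run of pyrimidines, the 5' terminal oligopyrimidine tract, through which mTOR signalling sets their translation. When assembly is disturbed, free RPL5 and RPL11 bind MDM2 and stabilise p53. Alveolar type 2 (AT2) cells, which make surfactant, devote much of their mRNA to surfactant proteins.

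The 2 libraries held 8924 barcodes with 127287281 unique molecular identifiers (UMIs, 1 per captured mRNA) labelled WT and 10014 barcodes with 137471506 UMIs labelled IPKO, of which 6745 and 8072 cells were kept. Cells with at least 10% of UMIs from the surfactant gene Sftpc were taken as AT2 cells (6422 labelled WT, 7465 labelled IPKO). All 10 AT2 markers, among them Sftpc itself, were detected in them in both libraries, but also in endothelial-like cells. Small numbers of endothelial-like cells (63 and 64) and immune-like cells (37 and 182) were present, although the sort was negative for CD31 and CD45. Immune-like cells divided into lymphoid-like (16 and 116) and myeloid-like cells (20 and 65). These classes were defined by the same marker lists, so detection of the markers in them is no separate evidence of identity. All 15 endothelial markers were detected in the endothelial-like cells of both libraries, and all 13 lymphoid markers in the lymphoid-like cells of both. The summed AT2 cells of both libraries also had UMIs of all 15 endothelial, 13 lymphoid and 14 myeloid markers. The myeloid-like cells labelled WT had 11 of 14 myeloid markers, with C1qa, C1qb and C1qc at 0. AT2 RNA was in all these cells: Sftpc took 0.507% and 0.598% of the UMIs of endothelial-like cells and between 0.314% and 0.451% of those of the lymphoid-like and myeloid-like cells. The libraries shared 79 cell barcodes, 12 of them AT2 cells in both. Ptgir went against the labels: AT2 cells labelled WT had 0 UMIs of it, and AT2 cells labelled IPKO had 314 UMIs in 299 cells. Endothelial-like, lymphoid-like and myeloid-like cells labelled WT had 0 UMIs of it too. The cause was not tested and whether the labels are right is not known, so each direction names the label only. With 1 library per label no difference was tested, and every interval is a 95% interval that covers counting error only, not the spread between mice. The limits beside a members' median are the medians of the single members' lower and upper limits, not an interval of that median.

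In AT2 cells the ribosomal protein genes took 9.38% of all UMIs in the library labelled WT (exact Clopper-Pearson interval 9.377% to 9.387%) and 10.02% in the library labelled IPKO (10.019% to 10.030%). Per cell the median share was 9.29% labelled WT, with quartiles at 8.20% and 10.35%, and 9.94% labelled IPKO, with quartiles at 8.88% and 11.04%. The shift between the libraries was thus smaller than the distance between the quartiles of either. Leaving mitochondrial genes and Sftpc out of the total gave 12.8% labelled WT and 13.4% labelled IPKO. Several other quantities moved with the library label in the same cells. The median mitochondrial share was 5.24% labelled WT and 3.91% labelled IPKO, the median share of 10 early response genes was 0.186% and 0.471%, and the median depth was 18307 and 17061 UMIs. All 5 club cell markers were detected in AT2 cells of both libraries, with a sum of 1218 CPM labelled WT and 393 CPM labelled IPKO. The summed pan-immune markers (6 of 6 detected) were at 1.29 and 7.41 CPM and the summed erythroid markers (5 of 5) at 0.205 and 7.19 CPM. The part of the club, pan-immune and erythroid markers in the ribosomal protein share was not tested. In cells with under 2.5% mitochondrial UMIs (122 and 1089 cells) the pooled ribosomal protein share differed by 0.01 on the log2 scale, in cells with 2.5% to 5% by 0.08, in cells with 5% to 10% by 0.06, and in cells with 10% to 20% (167 and 83 cells) by -0.03. Across the 4 bins of early response genes the difference ran from 0.09 to 0.13. So the excess labelled IPKO was present at every level of early response genes and was not seen in the lowest and the highest bin of mitochondrial share.

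Lymphoid-like cells gave ribosomal protein genes the highest share of their UMIs in both libraries: 40.3% labelled WT and 34.8% labelled IPKO. Myeloid-like cells followed with 13.4% and 20.1%, and endothelial-like cells had 7.40% and 9.53%, below the 9.38% and 10.02% of AT2 cells. Without mitochondrial genes and Sftpc in the total, endothelial-like cells had 7.66% and 9.89% and AT2 cells 12.8% and 13.4%. Myeloid-like cells then had 13.8% and 20.7%, and lymphoid-like cells 41.7% and 35.9%. Between cells of 1 class the spread was wide, from 22.4% to 53.7% (5th to 95th percentile) in lymphoid-like cells labelled WT and from 16.4% to 52.4% labelled IPKO. AT2 cells were the most even class, with 6.62% to 12.1% and 7.23% to 12.8%. The median cell of the lymphoid-like class held 2023.5 ribosomal protein UMIs labelled WT and 1767.5 labelled IPKO, beside 1692 and 1693 in the median AT2 cell, although its median depth was 5598.5 and 5083.5 UMIs.

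**Figure D1:**
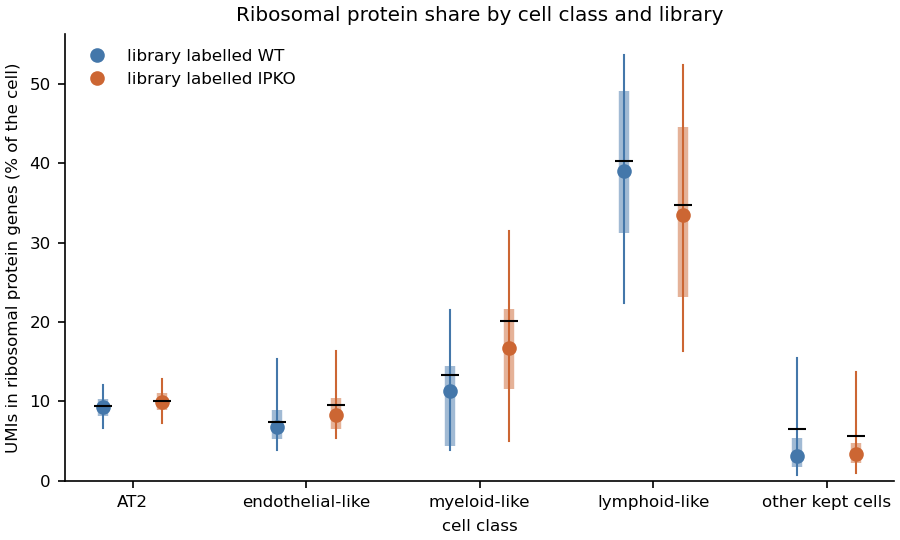
Share of each cell's UMIs in the 84 ribosomal protein genes (percent, vertical axis) by cell class (horizontal axis) and library; points are medians over cells, thick bars the quartiles, thin lines the 5th to 95th percentile and black dashes the share of the summed UMIs. Lymphoid-like cells sit highest in both libraries (40.3% and 34.8% of summed UMIs), while the 2 libraries' AT2 cells overlap.

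Levels within AT2 cells are given as UMIs per 1000000 UMIs of those cells (CPM). With 1 UMI per mRNA captured at its 3' end, CPM of different genes can be compared without their length. Of the 84 members 80 had a mean of at least 5 CPM over the 2 libraries. The median over members was 1098 CPM in the WT-labelled and 1172 CPM in the IPKO-labelled cells. Small subunit genes had a median of 1185 CPM and 1261 CPM, and large subunit genes of 1066 CPM and 1151 CPM, with overlapping ranges. At the top were Rps19 (3213 CPM labelled WT, 3347 CPM labelled IPKO), a small subunit protein mutated in Diamond-Blackfan anaemia, and Rpl21 (2729 and 2923 CPM). Rps14 (2100 and 2325 CPM) and Rpl10 (1904 and 2142 CPM) were also among the 5 highest. At the lower end were Rpl7l1 (36.5 and 41.2 CPM), Rps27l (177 and 198 CPM), Rpl15 (257 and 326 CPM), Rpl22l1 (254 and 331 CPM) and Rpl4 (445 and 490 CPM). Rps19 and Rpl21 led in both libraries, and even the level of Rpl7l1 rests on 4451 and 5399 UMIs.

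**Figure D2:**
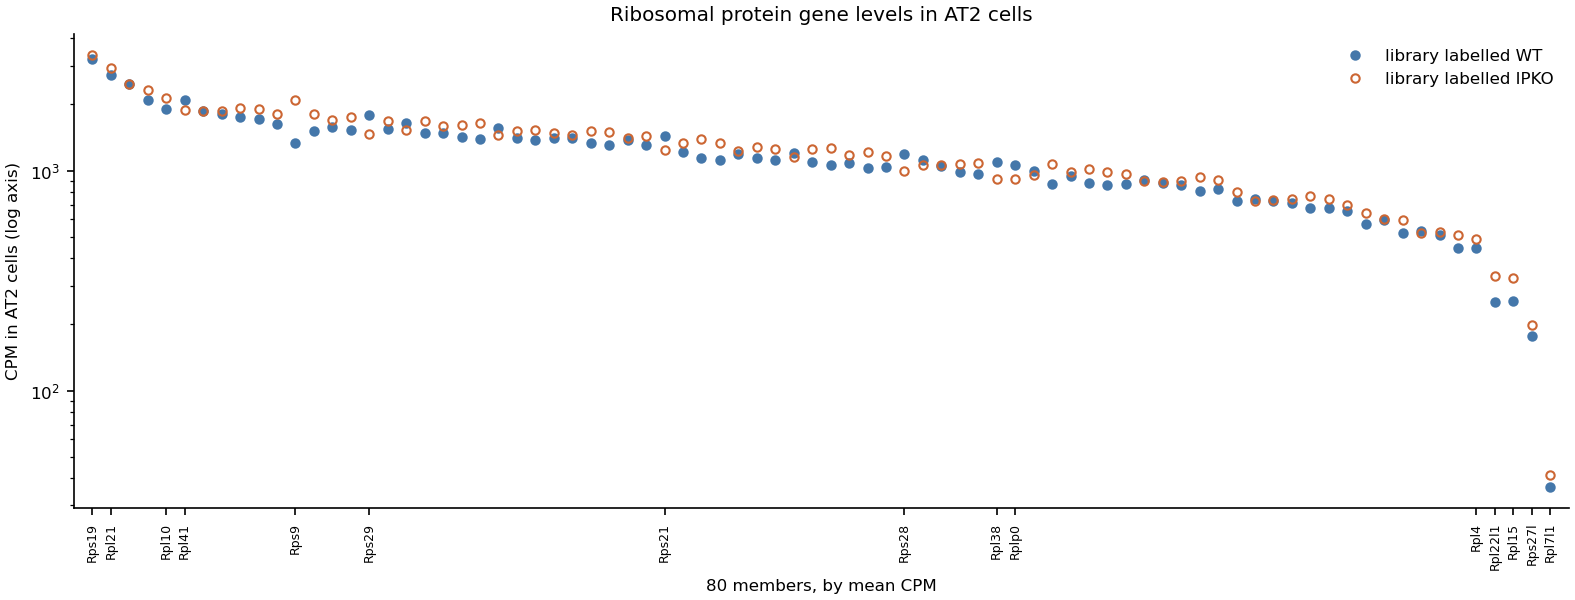
Level of each of the 80 members with at least 5 CPM in AT2 cells (CPM, log axis), ordered by the mean of the libraries, with some members named; filled points are the library labelled WT and open points the library labelled IPKO. Most pairs of points nearly coincide, and the pair for Rps9 (1337 and 2093 CPM) is the widest apart among the members above 1000 CPM.

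The divergent paralogs were low beside the genes they resemble. Rpl22l1, a paralog of Rpl22 that can take its place in the large subunit, reached 254 and 331 CPM against 678 and 745 CPM for Rpl22. Rps27l, a paralog of Rps27 known as a p53 target, reached 177 and 198 CPM against 1564 and 1448 CPM for Rps27. Rpl7l1 stood at 36.5 and 41.2 CPM against 1066 and 1263 CPM for Rpl7. The paralogs known from single tissues were at or near 0 in AT2 cells: Rpl3l, of heart and skeletal muscle, had 2 UMIs labelled WT and 4 labelled IPKO, Rpl39l, of male germ cells, had 9 and 12, and Rpl10l, also of male germ cells, had 0 and 0. The genes these resemble, Rpl3 (874 and 1077 CPM), Rpl39 (747 and 731 CPM) and Rpl10, were abundant. The pseudogene Rpl6l had 197 and 217 UMIs.

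Between the libraries, most ribosomal protein genes were slightly higher in AT2 cells labelled IPKO. The members' median log2 ratio, labelled IPKO over labelled WT, was 0.13 (medians of the members' limits 0.11 and 0.14), a 1.09-fold difference. Over all 8500 genes tested it was 0.06. Of the 80 members tested 64 lay above 0 and 16 below. All genes had quartiles of -0.06 and 0.18, so most of them also lay above 0, though their share was not counted. With TMM scaling (edgeR), which takes out a shift of 0.07, the median was 0.06, with 51 above 0 and 29 below. The median of all genes was then -0.0082. The large subunit median was 0.13, the small subunit median 0.12 and that of the 3 tested paralogs 0.17, while the stalk genes had a median of -0.07. A difference of at least 0.32 on the log2 scale was counted. Of the members 3 were that much higher, Rps9, Rpl22l1 and Rpl15, where 8.40% of all genes tested were, and 0 were that much lower, where 4.74% of all genes were. With TMM 1 member was that much higher, where 4.87% of all genes were, and 3 were that much lower, where 7.11% were. A count of 3 in 80 is below the background.

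Rps9 stood apart from all others. This gene of the small subunit protein uS4, which helps to keep decoding accurate, spans bases 3703993 to 3706897 of chromosome 7 on the plus strand of GRCm38, with no overlapping gene in the annotation. Its level in AT2 cells was 1337 CPM in the WT-labelled and 2093 CPM in the IPKO-labelled library, a 1.57-fold difference. The log2 ratio was 0.65 (0.64 to 0.66), which is 0.52 above the members' median, and Rps9 was the only member to lie at least 0.32 above that median. Its share of all ribosomal protein UMIs was 1.42% labelled WT and 2.09% labelled IPKO. With each AT2 cell thinned to 3000 UMIs (18 and 21 shallower cells left out), the mean was 4.0 UMIs of Rps9 per cell labelled WT and 6.31 labelled IPKO, and 97.2% and 99.6% of the cells had at least 1. Without thinning 99.9% of the cells had one in both libraries. The ratio was above 0 in all 18 bins of depth, mitochondrial share, early response genes and Sftpc share, between 0.50 and 1.04. In endothelial-like cells the level was 927 CPM labelled WT and 1418 CPM labelled IPKO (log2 ratio 0.61, 0.36 to 0.87), which lies 0.22 above the members' median of that class. In lymphoid-like cells it was 5184 and 5535 CPM (0.09, -0.05 to 0.24), 0.27 above the class median, and in myeloid-like cells 2908 and 4882 CPM (0.75, 0.61 to 0.89), 0.10 above it. Rps9 was thus higher labelled IPKO in AT2, endothelial-like and myeloid-like cells, and its distance from the other members was widest in AT2 cells, a difference between classes that was not tested. Rpl22l1 (log2 ratio 0.38, 0.36 to 0.40) and Rpl15 (0.35, 0.32 to 0.37), a large subunit gene, lay within 0.32 of the members' median. Rpl15 overlaps Nkiras1 on the opposite strand, and the sources used here do not say whether the counting used strand.

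Ptgir lies on the same chromosome as Rps9, and 14 members are on chromosome 7. Rps19 (7.97 Mb from Ptgir) had 3213 CPM labelled WT and 3347 CPM labelled IPKO, and its log2 ratio of 0.06 was within 0.32 of the members' median. Farther off were Rps16 (11.4 Mb, ratio 0.18), Rpl28 (12.1 Mb, 0.01) and Rps9 (13.2 Mb, 0.65), so of these 4 genes the farthest had the highest ratio.

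At the other end, 5 members lay at least 0.32 below the members' median in AT2 cells. TMM scaling brought the median of all genes to -0.0082, and 7.11% of them were then at least 0.32 lower and 4.87% higher. Neither 5 of 80 members below their median nor 1 above it exceeds these shares. Rps29, a zinc finger protein of the small subunit, had 1798 CPM labelled WT and 1465 CPM labelled IPKO (log2 ratio -0.30, -0.30 to -0.29). Rps28, a small subunit protein next to the mRNA exit, had 1185 and 992 CPM (-0.26, -0.27 to -0.25). Rpl38, which in mouse embryos is needed for translation of certain Hox mRNAs, had 1097 and 919 CPM (-0.25, -0.27 to -0.24). Rps21 of the small subunit had 1436 and 1245 CPM (-0.21, -0.22 to -0.20), and Rplp0, the base of the stalk that recruits elongation factors, 1057 and 919 CPM (-0.20, -0.21 to -0.19). All 5 were lower labelled IPKO, each by less than 0.32. Just inside the limit were Rpl41 (2098 and 1884 CPM, -0.16) below and Rpl22l1 above. Over the 18 bins, Rps29 and Rpl38 were lower labelled IPKO in all, Rplp0 in 17, and Rps28, Rps21 and Rpl41 in 16, with the exceptions among cells of under 10000 UMIs. Rps28 overlaps Kank3 on the opposite strand, which itself had 2195 and 2627 UMIs in AT2 cells. The other stalk genes had 1804 CPM labelled WT and 1868 CPM labelled IPKO for Rplp1 (0.05) and 1114 and 1062 CPM for Rplp2 (-0.07), so the 3 stalk genes did not share a direction.

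**Figure D3:**
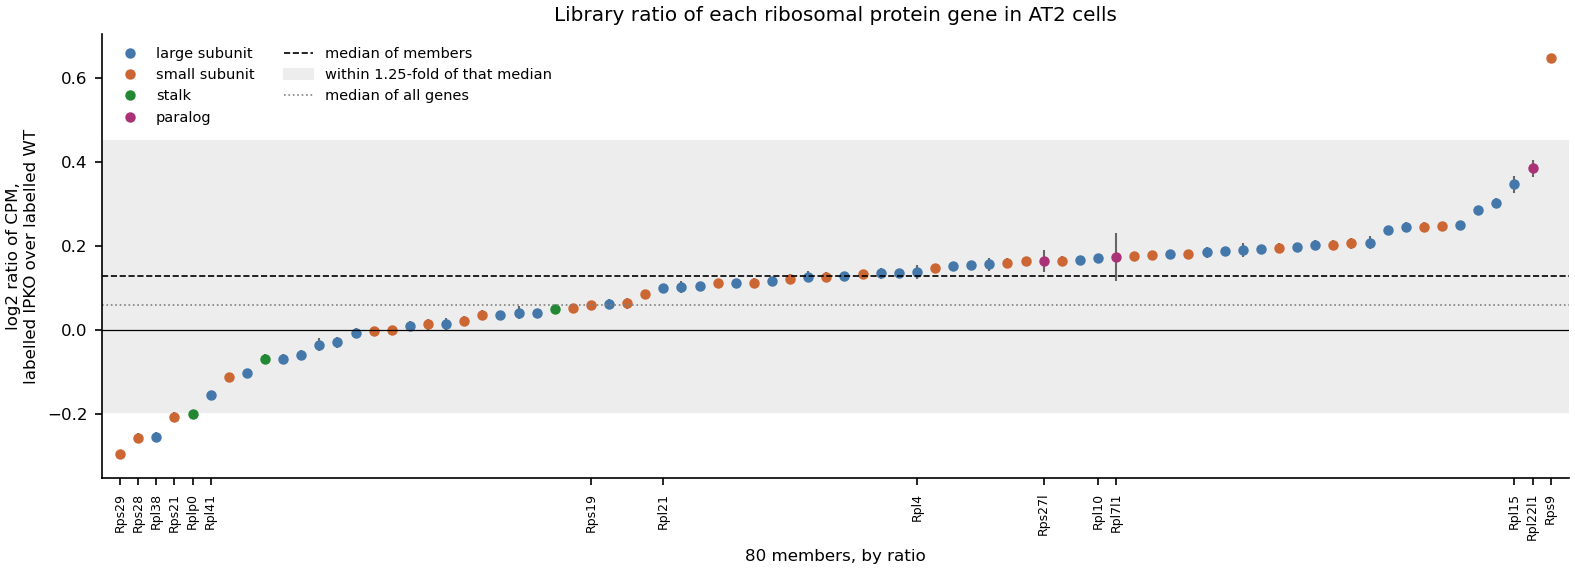
Log2 ratio of CPM in AT2 cells, library labelled IPKO over library labelled WT, for the 80 members in order, with some named; colours mark the role, vertical lines the 95% counting intervals, the grey band 0.32 on either side of the members' median. Rps9 alone lies above the band (0.65), and Rps29, Rps28, Rpl38, Rps21 and Rplp0 lie below it.

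These low members, all but Rplp0, encode some of the shortest ribosomal proteins, and the ratios were therefore set against coding length (the summed coding exons of the principal GENCODE transcript). This comparison was chosen after the ratios had been seen. The 10 tested members with under 300 coding bases had a median log2 ratio of -0.13, and 9 of them lay below 0: Rps29, Rps28, Rpl38, Rps21, Rpl41, Rps27, Rpl37a, Rpl37 and Rpl39. The exception was Rps27l (0.16). Members with 300 to 400 bases (17 genes) had a median of 0.04, those with 400 to 500 (22) of 0.14, those with 500 to 700 (16) of 0.19, and those with 700 or more (15) of 0.16. In this last group 2 members lay below 0: Rplp0 (951 coding bases, -0.20) and Rpl6 (888 bases, -0.0071). Other genes had medians of 0.12, 0.14, 0.18, 0.13 and 0.04 in the same 5 groups, so that they too were lower under 300 bases than from 300 to 500, by less than the members, and were lowest at 700 bases or more. Other genes that reached 250 CPM had medians of 0.0023, 0.066, 0.10, 0.051 and 0.0018, and 12 of the 25 under 300 bases lay below 0. Over the 80 members Spearman's rho between ratio and coding length was 0.56 in AT2 cells, and 0.24 with the length of the whole transcript. In 8322 other genes rho with coding length was -0.27. These correlations are descriptions over genes of the same 2 libraries. In the other classes too, members under 300 bases had the lowest median ratio of the 5 length groups: in endothelial-like cells (0.08, against 0.39 over all members), in lymphoid-like cells (-0.47, against -0.17) and in myeloid-like cells (0.19, against 0.65). The order of the longer groups was not the same in all classes. All classes of a library were prepared together, so these are not independent repeats.

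**Figure D4:**
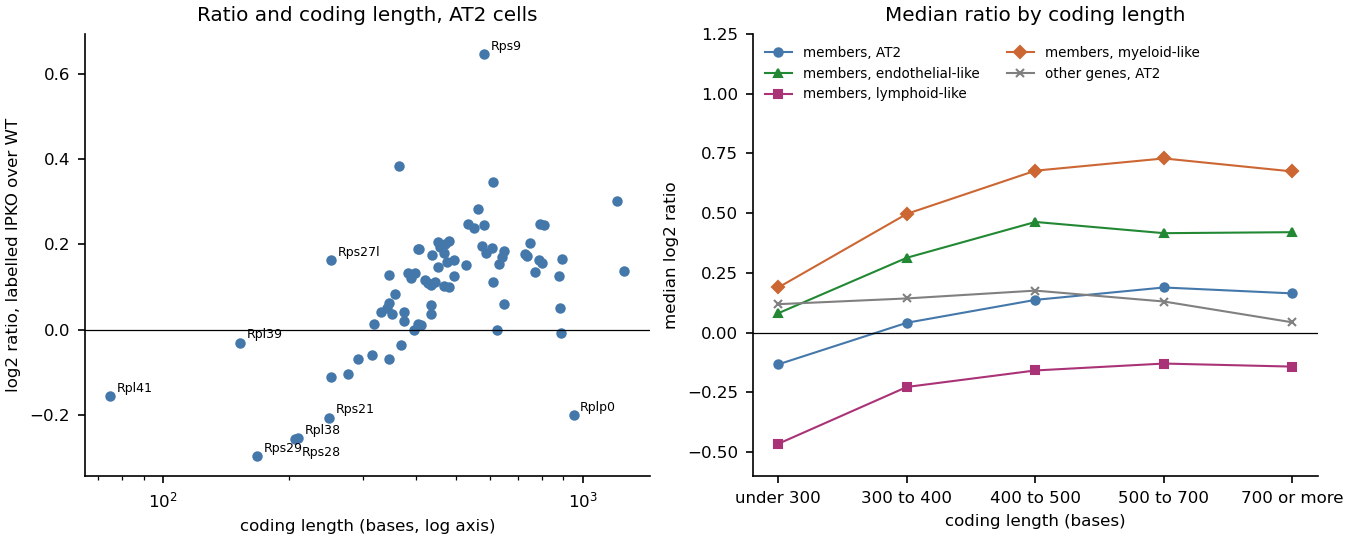
Left, log2 ratio in AT2 cells (labelled IPKO over labelled WT) against coding length (bases, log axis) for the 80 tested members; right, median log2 ratio in 5 groups of coding length for members in 4 cell classes and for other genes in AT2 cells. Members under 300 bases have the lowest median in each class, -0.13 in AT2 cells, where other genes of that length have 0.12.

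The start of these genes was read from RefSeq (GRCm38.p6), where 63 of the 84 members had an entry. Near the annotated start (30 bases before to 50 after) a run of at least 8 pyrimidines was found in 74.6% of the 63, against 28.9% of all 27025 promoters in that window. CTTTC on the gene strand was found in 46.0% of members and 10.1% of all promoters. CGGAAG, the core recognised by ETS family factors, was found on either strand in the 100 bases before to 50 after the start in 50.8% of members and 12.3% of all. These matches describe letters, not bound sites. The 15 bases before and 15 from the annotated start are printed for some of the members that stood apart and had an entry. The longest run of pyrimidines is in capitals, to show how their starts differ.
Rps9 (chr7:3704026-3704055, plus strand): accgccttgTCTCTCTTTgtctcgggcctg
Rps28 (chr17:33824548-33824577, minus strand): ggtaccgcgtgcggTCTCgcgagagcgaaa
Rpl38 (chr11:114668565-114668594, plus strand): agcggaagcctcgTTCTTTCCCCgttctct
Rps21 (chr2:180257364-180257393, plus strand): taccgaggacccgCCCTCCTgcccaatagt
Rplp0 (chr5:115559452-115559481, plus strand): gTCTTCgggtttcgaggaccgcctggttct
Rps19 (chr7:24884577-24884606, plus strand): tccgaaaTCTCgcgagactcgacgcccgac
Rpl12 (chr2:32961697-32961726, plus strand): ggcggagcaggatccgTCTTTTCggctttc
Rps27l (chr9:66946071-66946100, plus strand): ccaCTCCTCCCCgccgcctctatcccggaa
Rps9, the highest member, has a run of 9 and Rpl38, among the lowest, one of 10, while Rps28 and Rps19 have runs of 4 in this window. Rpl10, whose window is not printed, has one of 3. An annotated start can differ from the start used in these cells, so the run length in the window is no measure of the tract on the mRNA.

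The genes whose proteins bind MDM2 did not stand apart from the other members. In AT2 cells Rpl5 had 969 CPM labelled WT and 1087 CPM labelled IPKO (log2 ratio 0.17), Rpl11 had 1024 and 1217 CPM (0.25), Rpl23 had 1549 and 1678 CPM (0.12) and Rps7 had 1121 and 1330 CPM (0.25). Rps27l had a ratio of 0.16. All 5 were above 0 and within 0.32 of the members' median. Rps6, the small subunit protein phosphorylated after mTOR activation, had 881 and 1014 CPM (0.20), and Rpsa, which also serves as a laminin receptor, 950 and 984 CPM (0.05).

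Other genes of the translation machinery shifted by a like amount in AT2 cells. Elongation factors had a median log2 ratio of 0.18, with 1 of 7 at least 0.32 higher (Eef1d, 160 CPM labelled WT and 203 CPM labelled IPKO). Initiation factors had 0.17, with 3 of 29 higher, among them Eif3e (98.7 and 137 CPM), and 1 lower, Eif4h (349 and 259 CPM). Of the ribosome biogenesis list 24 of 26 genes were tested, with a median of 0.15, 5 higher and 1 lower. Gar1, a box H/ACA ribonucleoprotein, had 6.60 and 9.98 CPM and Heatr1, needed for rRNA transcription and processing, 20.6 and 12.6 CPM. The ribosomal proteins of mitochondria had 0.21, with 13 of 74 higher and 0 lower, from Mrpl52 (-0.12) to Mrps26 (0.44). Genes for ubiquitin fusions and ribosome-bound proteins had 0.15, with 1 of 4 higher. Fau, which encodes a ubiquitin-like protein fused to a small subunit protein, had 1470 and 1540 CPM (0.07). Among 9 tested regulators of ribosome production (median -0.03) 0 were past 0.32 in either direction, between Maf1 (-0.28) and Rps6kb1 (0.10). These counts stand beside 8.40% higher and 4.74% lower among all genes. The 10 early response genes were all higher labelled IPKO (median 1.11).

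In endothelial-like cells of the library labelled WT the members' median was 0.28 below AT2 cells on the log2 scale (-0.28, medians of the members' limits -0.46 and -0.09). Labelled IPKO it was level with them (-0.02, -0.17 to 0.16). Over all genes the median difference was 0.97 and 0.88. AT2 cells spent 21.2% and 21.0% of their UMIs on Sftpc, and the part of this in the difference over all genes was not tested. TMM scaling, with shifts of 1.06 and 0.99, gave medians of -1.33 and -1.01. At least 2-fold higher was 1 member labelled WT, where 48.6% of all genes were, and 1 labelled IPKO, where 45.6% were. At least 2-fold lower were 3 and 2 members, where 10.3% and 9.86% of all genes were. These counts depend on the scaling: with TMM 72 members labelled WT and 40 labelled IPKO were at least 2-fold lower, where 23.5% and 20.9% of all genes were, and 0 were that much higher in either library, where 22.6% and 20.2% were.

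Rps19 and Rps27l departed from the other members in endothelial-like cells of both libraries. Rps19, first in AT2 cells, stood at 935 CPM (219 UMIs) in endothelial-like cells labelled WT and at 1373 CPM (331 UMIs) in those labelled IPKO, 3.44-fold and 2.44-fold below AT2 cells (log2 differences -1.78, -1.98 to -1.59, and -1.29, -1.45 to -1.13). This was 1.51 and 1.27 below the members' median. Rps27l went the other way, with 363 CPM (85 UMIs) against 177 CPM in AT2 cells labelled WT and 402 CPM (97 UMIs) against 198 CPM labelled IPKO. Its log2 differences were 1.04 (0.71 to 1.34) and 1.02 (0.72 to 1.31), 1.31 and 1.04 above the members' median, but with TMM scaling its own difference was -0.02 labelled WT. Rpl21 was 1.26 and 1.09 lower in endothelial-like cells, which was past 2-fold from the members' median labelled IPKO (-1.07) and just short of it labelled WT (-0.99). Rpl7l1 departed upwards labelled WT only (0.99, from 17 UMIs). The next lowest were Rps28 (-1.21 and -0.86) and Rpl10 (-0.98 and -0.92), and the next highest Rpl15 (0.57 and 0.56). Across members the levels in endothelial-like and AT2 cells followed each other (Spearman's rho 0.88 over 80 members labelled WT and 0.87 over 81 labelled IPKO).

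Lymphoid-like cells had the highest levels of nearly all members. The median was 2.13 above AT2 cells labelled WT (1.92 to 2.27), 4.38-fold, and 1.74 above labelled IPKO (1.69 to 1.80), 3.35-fold, beside 0.65 and 0.51 over all genes. At least 2-fold higher were 76 and 75 of 79 tested members, against 38.1% and 33.1% of all genes tested, and with TMM scaling 57 and 55, against 20.1% and 21.3%. Rpl12, a large subunit protein at the base of the stalk, was 731 CPM in AT2 cells and 7844 CPM in lymphoid-like cells labelled WT, and 798 and 6226 CPM labelled IPKO. That is 10.7-fold and 7.80-fold (log2 3.42, 3.31 to 3.53, and 2.96, 2.92 to 3.01), 1.29 and 1.22 above the members' median. Rpl12 overlaps Lrsam1 on the opposite strand, which had 386 and 436 UMIs in AT2 cells. Rps16 (3.02 and 2.60) and Rpl39 (2.95 and 2.59) followed. Rpl10 was 1904 CPM in AT2 and 3104 CPM in lymphoid-like cells labelled WT, and 2142 and 3079 CPM labelled IPKO. Its differences of 0.71 and 0.52 and those of Rpl21 (0.86 and 0.57) were the lowest after that of Rps27l. Rps27l, the p53 target, was 114 CPM in lymphoid-like cells labelled WT (10 UMIs) and 163 CPM labelled IPKO (111 UMIs), with differences of -0.64 (-1.70 to 0.24) and -0.28 (-0.56 to -0.01). It lay 2.77 and 2.02 below the members' median, and its share of ribosomal protein UMIs was 0.028% and 0.047%, against 0.490% and 0.422% in endothelial-like cells. Its parent Rps27 was 2.39 and 1.95 above AT2 cells. Against endothelial-like cells 78 and 76 members were at least 2-fold higher in lymphoid-like cells, where 14.6% and 12.6% of all genes were, and 1 was that much lower in each library, where 40.6% and 34.9% were. Rps24 of the small subunit was 3.51 and 2.87 higher on the log2 scale, past 2-fold above the members' median in both libraries.

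Myeloid-like cells lay between. The members' median was 0.53 above AT2 cells labelled WT (0.34 to 0.72) and 1.04 above labelled IPKO (0.95 to 1.13), beside 0.82 and 0.67 over all genes, so that with TMM scaling it was -0.31 labelled WT and 0.38 labelled IPKO. At least 2-fold higher were 8 of 79 members labelled WT, where 43.7% of all genes were, and 44 of 80 labelled IPKO, where 37.3% were. With TMM 0 members labelled WT and 2 labelled IPKO were that much higher, where 23.9% and 22.0% of all genes were, and 2 and 1 were that much lower, where 22.4% and 20.5% were. Rpl21 (1380 CPM labelled WT, 2281 CPM labelled IPKO) and Rps19 (1795 and 3026 CPM) departed downwards in both libraries, with differences of -0.98 and -0.36 for Rpl21 and of -0.84 and -0.15 for Rps19. These 2 genes, the highest of AT2 cells, were thus below AT2 cells in myeloid-like as in endothelial-like cells before scaling. Rpl39 (1.33 and 1.73) of the large subunit was among the highest in both libraries, and Rps27l was at 386 and 355 CPM (1.13 and 0.84). Against myeloid-like cells 73 members labelled WT and 11 labelled IPKO were at least 2-fold higher in lymphoid-like cells, where 17.2% and 8.13% of all genes were, and 1 was that much lower in each, where 33.3% and 22.1% were. Taking all immune-like cells as 1 class gave medians above AT2 cells of 1.27 and 1.44, with 57 and 72 members at least 2-fold higher, where 40.5% and 33.9% of all genes were, and with TMM 8 and 30, where 20.6% and 19.6% were.

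**Figure D5:**
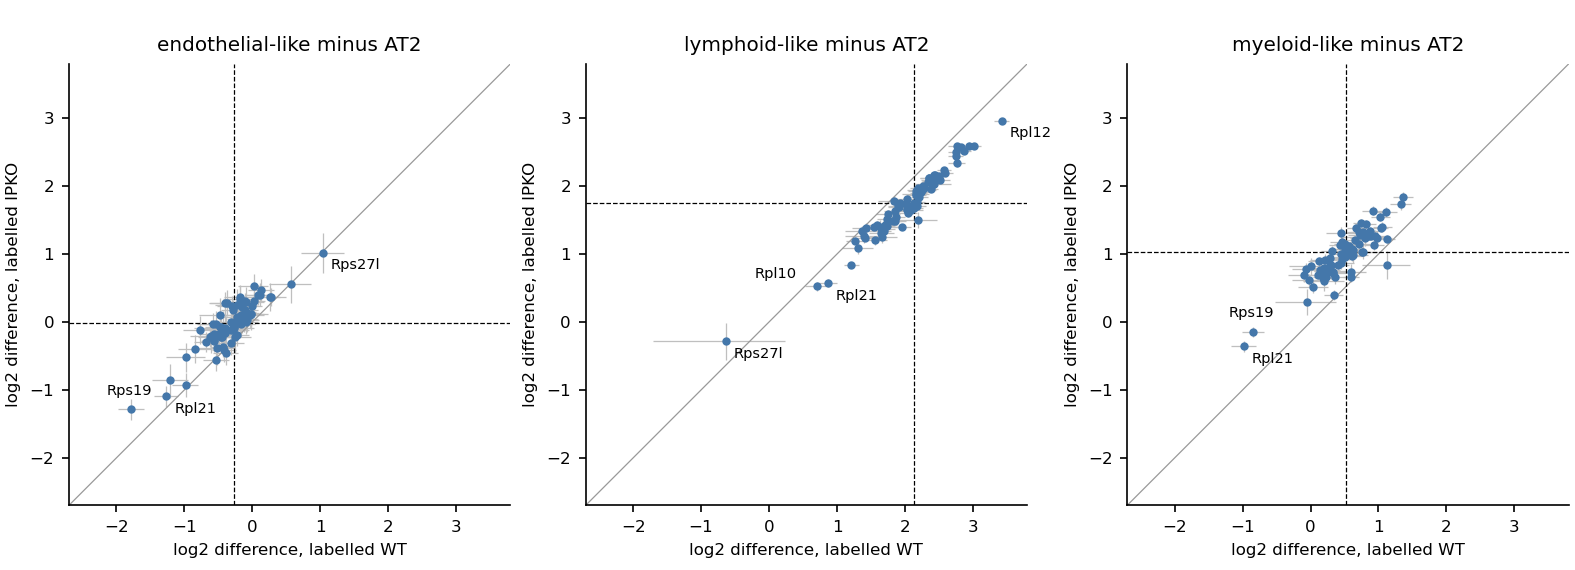
Log2 difference of CPM between a cell class and AT2 cells for each member, library labelled WT on the horizontal axis and library labelled IPKO on the vertical axis; grey bars are 95% counting intervals, dashed lines the members' medians and the diagonal equal differences. The named members lie away from the others in at least 1 library, such as Rps27l (1.04 and 1.02) and Rps19 (-1.78 and -1.29) in endothelial-like cells.

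The differences between classes kept nearly the same order of members in the 2 libraries. Over 79 members Pearson's r between the libraries was 0.89 for endothelial-like minus AT2, 0.98 for lymphoid-like minus AT2 and 0.88 for myeloid-like minus AT2. The points share the kit, the gene models and, within a library, the AT2 cells they are set against. Leaving out the 13 members with a pseudogene feature of the same name ("-ps", 0.062% and 0.069% of member UMIs in AT2 cells) gave a median of 0.13 between the libraries in AT2 cells. The sources used here do not say how reads that match several copies of such a gene were counted, so single members may be under-counted.

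The library difference was not alike across classes. In endothelial-like cells the members' median ratio, labelled IPKO over labelled WT, was 0.39 (0.13 to 0.64), with 48 of 80 members at least 0.32 higher and 1 lower, against 23.4% and 26.6% of all genes, and over all genes the median was -0.04. Without candidate doublets it was 0.21. In lymphoid-like cells it was -0.17 (-0.33 to -0.02), with 1 of 79 members higher and 15 lower, against 29.3% and 27.8%, and in myeloid-like cells it was 0.65 (0.43 to 0.84), with 70 of 80 higher and 0 lower, against 24.6% and 38.8%. Over all immune-like cells it was 0.36, with 48 higher and 0 lower, against 21.8% and 35.5%. Genes entered these shares from a mean of 50 CPM, while the members' median was 5030 CPM in lymphoid-like cells labelled WT (87964 UMIs in all). Counting error thus weighs more in the shares of all genes than in the counts of members. With TMM scaling the medians of endothelial-like, lymphoid-like and myeloid-like cells were 0.40, -0.01 and 0.83. In lymphoid-like cells TMM left 4 members lower, where 438 of 2189 genes were, and 1 higher, where 37.1% of genes were. Of the members 35 then lay above 0 and 44 below, and how many of all genes did was not counted. The short members Rps29 and Rps21 lay below the members' median of each of these classes by CPM, but above 0 in myeloid-like cells. Rps29 had -0.20 in endothelial-like, -0.57 in lymphoid-like and 0.41 in myeloid-like cells, and Rps21 had 0.03, -0.62 and 0.39. Highest in endothelial-like cells were Rpl7 (0.79), Rpl11 (0.78), Rpl12 (0.78) and Rps13 (0.77), and in myeloid-like cells Rpl12 (0.98), Rpl18 (0.95), Rpl3 (0.95) and Rpl19 (0.92). In lymphoid-like cells Rps27l (0.52, -0.41 to 1.62), itself a short member, and Rpl29 (0.15, -0.09 to 0.39) were highest, both with intervals that held 0.

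The makeup of the small classes also differed between the libraries. Of the lymphoid-like cells 8 of 16 labelled WT and 41 of 116 labelled IPKO had a UMI of the T cell gene Cd3e, 5 and 32 of the B cell gene Cd79a, and 4 and 49 of Nkg7, a gene of cytotoxic cells. All 5 haemoglobin and erythroid genes were at 0 in those labelled WT, and their sum was 15555 CPM in those labelled IPKO. Of the myeloid-like cells 7 of 20 labelled WT and 7 of 65 labelled IPKO had a UMI of the alveolar macrophage gene Marco, 7 and 11 of the neutrophil gene S100a8, and 6 and 42 of the antigen presentation gene Cd74. In endothelial-like cells all 6 pan-immune markers were at 0 labelled WT and 5 of 6 had UMIs labelled IPKO, with sums of 0 and 228 CPM. The part of these differences in the library ratios of endothelial-like, lymphoid-like and myeloid-like cells was not tested.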

How the data were processed

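Per the submitters' processing notes, Cell Ranger 4.0.0 and GRCm38 (mm10) were used, and the authors deposited UMI counts that were not normalized. Per the labels' protocols the kit was a 10x 3' kit. The sources used here do not name the annotation release. Barcodes with under 500 genes or over 20% mitochondrial UMIs were left out. Endothelial-like and immune-like cells had under 10% Sftpc and at least 4 markers of their kind, more than of the other. Doublets were not removed in the main results. Counts were summed per class and library and given as CPM, with exact Poisson limits for levels, exact conditional binomial limits for log2 ratios and Clopper-Pearson limits for shares, all for counting error only. Genes entered the comparison of libraries in AT2 cells at a mean of 5 CPM and any other at 50 CPM. All members but Rpl10l were detected in kept cells of each library. A difference counted from 0.32 on the log2 scale between libraries and from 2-fold between classes, and a member departed when it lay that far from the members' median. The ratio code was tested on simulated data. Members named are the 4 highest and 4 lowest of a comparison (shortened where they repeat), those that departed, the 5 highest and 5 lowest in AT2 cells, paralogs with their parents, stalk and MDM2-binding genes, those within 10 Mb of Ptgir, Rps6 and Rpsa, and up to 4 of each other list; Rpl28 and Rps16 by their place on chromosome 7 and the short members were added after their values were seen. Some members that this rule names are not reported here. Rps4l, Trac, Trbc2 and Rack1 are not analysed here. The members and lists were chosen with earlier results of these data known. Positions and lengths are from GENCODE M21. Python 3.11.15, numpy 2.4.6, scipy 1.17.1, pandas 2.3.3 and edgeR 4.0.16 (R 4.3.3) were used.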

Additional observations from a re-analysis of the deposited data

Results flagged for a closer look

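For 10 members, 9 of them named here, the library ratio went opposite ways in 2 cell classes, by at least 0.32 on the log2 scale in both and with counting intervals that left out 0; the difference itself was not tested, since each class has 1 library per label. Each was lower labelled IPKO in lymphoid-like cells and higher in another class. Between myeloid-like and lymphoid-like cells the log2 ratios differed by 1.32 for Rpl12, 1.01 for Rps21, 0.98 for Rps29, 0.97 for Rps27, 0.91 for Rpl8, 0.86 for Rplp0, 0.81 for Rpl28, 0.76 for Rpl39 and 0.76 for Rps26. Between lymphoid-like and endothelial-like cells they differed by -1.12 for Rpl12, -0.89 for Rplp0, -0.87 for Rpl39 and -0.76 for Rpl28. All these differences rest on the 16 lymphoid-like cells labelled WT, where the TMM shift was -0.16. With TMM scaling 4 of all tested members were at least 0.32 lower in lymphoid-like cells, against 15 without it. The members' medians themselves went opposite ways, with -0.17 in lymphoid-like, 0.65 in myeloid-like and 0.39 in endothelial-like cells. How many of all genes meet this rule was not counted.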

How the results depend on the processing

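No paired analysis was possible because each label has 1 library, and no library could be left out. In AT2 cells the members' median ratio between libraries, 0.13 by CPM, was 0.059 with TMM and 0.054 with median-of-ratios factors. The median of endothelial-like minus AT2 cells was -1.33 with TMM and -1.28 with median-of-ratios labelled WT, and -1.01 and -0.97 labelled IPKO, where leaving out candidate doublets gave -0.20. For immune-like minus AT2 cells it was 0.52 and 0.59 labelled WT, and 0.84 and 0.90 labelled IPKO, where leaving out candidate doublets gave 1.505. The immune-like median between libraries was 0.50 with median-of-ratios. Lymphoid-like and myeloid-like cells alone, a choice made after seeing the data, gave -0.17 and 0.65 between libraries, 2.13 and 0.53 above AT2 cells labelled WT, and 1.74 and 1.04 labelled IPKO, so the first reversed. Rps27l in endothelial-like minus AT2 cells labelled WT reversed to -0.021 with TMM. The share of AT2 UMIs in members was 9.42% labelled WT and 10.04% labelled IPKO without cells over 10% mitochondrial UMIs. It was 9.36% and 9.97% with the Sftpc gate at 5%, 9.43% and 10.04% with it at 15%, and 9.34% and 9.97% without candidate doublets. It was 12.8% and 13.4% without mitochondrial genes and Sftpc, and 9.29% and 9.94% as the median over cells. In each of these the IPKO-labelled share was the higher. Counts of members moved with TMM too: 2-fold lower in endothelial-like minus AT2 cells from 3 to 72 labelled WT and from 2 to 40 labelled IPKO, 2-fold higher in immune-like minus AT2 cells from 57 to 8 and from 72 to 30, 2-fold higher in myeloid-like minus AT2 cells from 8 to 0 and from 44 to 2, and lower labelled IPKO in lymphoid-like cells from 15 to 4. The cause of these moves was not tested. Depth limits single members in the small classes. The medians of the members' lower and upper counting limits between libraries were 0.13 and 0.64 in endothelial-like cells. They were -0.33 and -0.02 in lymphoid-like and 0.43 and 0.84 in myeloid-like cells.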
